A study of Mus musculus with 9 samples.

Results

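The genes described here are 36 interferon-stimulated genes of the mouse, chosen by name. Every probe set annotated to one of these symbols was taken, with Rigi also written Ddx58 and Trim30a also written Trim30. Of the 36 genes, 34 had at least 1 probe set of their own, 52 probe sets in all, among 18193 genes measured in the series. Isg15 had only a probe set that the annotation shares with another gene, Ifi44 had no probe set under its symbol, and no values are given for either. Mx1 and Cmpk2 lay in the lowest 40% of probe sets by mean over all arrays, under a log2 value of 6.22, and were left out of the test by gene. The other 32 genes were tested among 12962 genes, each by its probe set with the highest mean.

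RNA came from 3 lines of mouse embryonic fibroblasts (MEFs), cultures grown from female embryos at E12.5 of gestation, with 3 arrays per line. Oga encodes O-GlcNAcase, which removes O-linked N-acetylglucosamine from proteins, and the lines were WT, heterozygous (Het) or knockout (KO) for it. The embryos came from crosses of Oga heterozygous mice, themselves bred from a C57B1/6 male with a floxed Oga allele and a B6129-Tgn(MMTV-Cre)1Mam female, whose Cre is driven by the mouse mammary tumour virus promoter. The labels do not say whether the cultured lines still carried the Cre transgene. The 3 arrays of a genotype are technical replicates of 1 line, so every p-value below rests on the spread between arrays, and genotype cannot be told apart from any other difference between the lines. On the log2 scale Oga had a mean of 11.92 in WT, of 11.16 in Het and of 6.06 in KO. Arrays of a line correlated at r = 0.997 to 0.999 and arrays of different lines at 0.989 to 0.996. Of 14 fibroblast markers all had a mean above 6.22 in every line.

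Interferons are secreted proteins that warn cells of infection. Type I interferons act through the receptor chains Ifnar1 and Ifnar2 and the kinases Jak1 and Tyk2, which activate a complex that contains Stat2 and Irf9; this complex binds the interferon-stimulated response element in the promoters of its targets. The targets include sensors of foreign nucleic acid, proteins that block viral replication, and the signalling factors themselves, so that Stat2, Irf7 and Irf9 are both parts and products of the pathway. Type II interferon acts at gamma-activated sites and induces large GTPases that attack the vacuoles of intracellular microbes. Fibroblasts and macrophages both make these transcripts.

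Interferon-stimulated genes were lower in KO than in WT with few exceptions, and the place of the Het line differed between genes. In this text a gene fell or rose if its limma adjusted p was below 0.05 and its difference at least 2-fold. In KO against WT, 15 of 32 genes fell and 0 rose (limma, 1 higher at an unadjusted p under 0.05), where 2.58% of all genes fell and 0.988% rose. The median log2 difference was -0.95, with a range from -2.39 to 0.92, beside a median of -0.03 over all 12962 genes. By the adjusted p alone 29 genes were lower and 1, Irgm1, was higher, where 31.5% of all genes were lower and 21.6% higher. The same 29 and 1 genes had KO arrays that did not overlap the WT arrays, as did 36.1% of all genes on the lower and 25.7% on the higher side. Oasl1 (log2 difference -0.10, adjusted p = 0.108) and Zbp1 (0.03, adjusted p = 0.830) did not pass.

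In Het against WT, 2 of 32 genes, Xaf1 and Ifit1, fell and 0 rose (limma, 1 higher at an unadjusted p under 0.05), where 0.201% of all genes fell and 0.054% rose. The median was -0.39 and that of all genes -0.01. By the adjusted p alone 25 genes were lower, against 21% of all genes, and 1, again Irgm1, was higher, against 13.4%. The Het arrays lay apart from the WT arrays on the lower side in 27 genes and on the higher side in 1, as in 27.9% and 19.8% of all genes. In KO against Het, 8 genes fell and 0 rose (limma, 2 higher at an unadjusted p under 0.05), where 1.37% of all genes fell and 0.625% rose, and the median was -0.46 beside -0.02. By the adjusted p alone 25 genes were lower and 2, Irgm1 and Ifit2, were higher in KO than in Het, against 28.6% and 23.7% of all genes. The KO arrays lay apart from the Het arrays in 26 genes on the lower and 2 on the higher side, as in 31.3% and 26.6% of all genes. These comparisons share the arrays of a line and are not independent of each other.

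**Figure D1:**
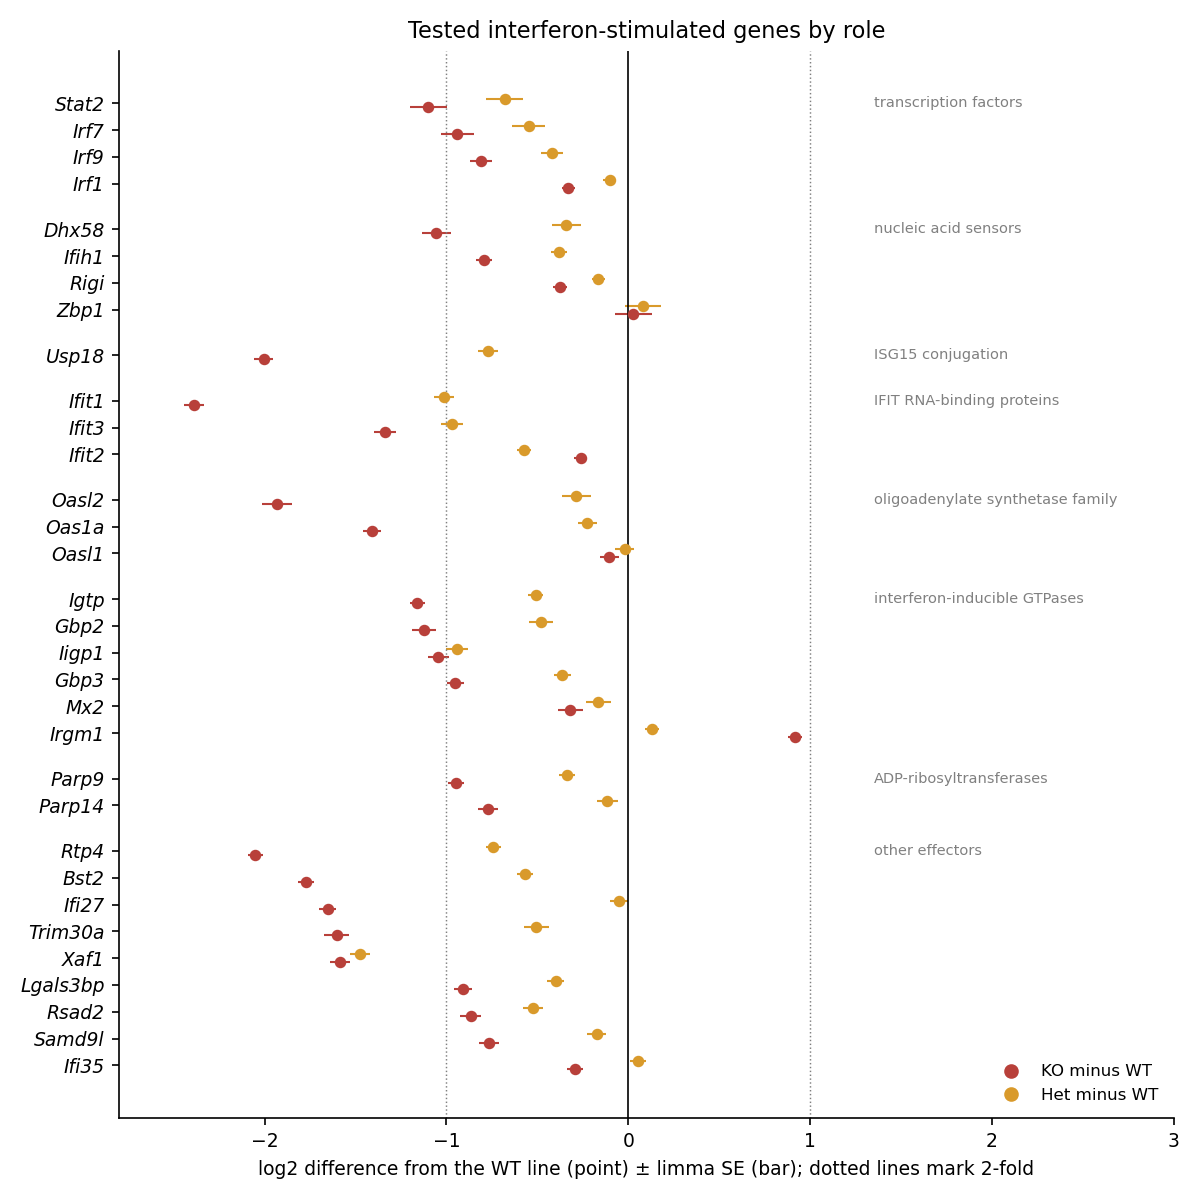
Log2 difference from the WT line (horizontal axis) of each of the 32 tested interferon-stimulated genes, grouped by role, for the KO line (red) and the Het line (orange); bars are limma standard errors and dotted lines mark 2-fold. KO differences run from -2.39 for Ifit1 to 0.92 for Irgm1, and Het differences from -1.48 for Xaf1 to 0.13 for Irgm1.

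The transcription factors of the pathway were all lower in KO than in WT by the adjusted p, and 1 of 4 fell. Of all genes 31.5% were lower by the adjusted p and 2.58% fell. Stat2, the transactivating subunit of the type I interferon complex, read 8.50, 8.33 and 8.24 on the WT arrays, 7.69, 7.56 and 7.77 on the Het arrays and 7.50, 7.21 and 7.07 on the KO arrays. Its 3 groups of arrays did not overlap, and it fell by 1.10 ± 0.10 in KO (SE, n = 3 arrays per line, adjusted p = 4.9e-06). The other Stat2 probe set gave -1.14 in KO and -0.49 in Het. Irf7, the factor that drives the late wave of interferon-alpha transcription, was lower in KO by a log2 difference of -0.94 ± 0.09 and in Het by -0.55 ± 0.09, short of 2-fold. Irf9, the DNA-binding subunit of the same complex, was lower by -0.81 and -0.42. Irf1, which responds strongly to type II interferon, differed least, by -0.33 in KO and -0.10 in Het.

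The interferon-stimulated response element was sought in the promoters of these genes. Because the genes were chosen by name as interferon-stimulated, a share above that of all genes was likely in advance. RefSeq promoter windows of GRCm38.p6, 250 bases before to 50 after the transcript start, were found for 26 of the 36 genes. Usp18, Rtp4, Ifi27, Dhx58 and Iigp1, which all fell in KO, had no window. The core of the interferon-stimulated response element, GAAANNGAA on either strand, was present in 16 of these 26 genes (61.5%), against 9.76% of 27025 genes with a window. With a further A at its 3′ end, the strict form used from here on, it was present in 14 (53.8%) against 3.99%. The gamma-activated site TTCNNNGAA, on either strand and counted also where it overlaps the other motif, was present in 6 of 26 (23.1%) against 9.55%. Among the 23 tested genes with a window, the 13 that held the strict core had a median KO minus WT log2 difference of -1.12 and 8 of them fell, while the 10 without it had a median of -0.79 and 2 fell; this split is a description without a test. A match shows only that these letters are in the window. The windows below are written 5′ to 3′ on the strand of the gene, with the strict core and the gamma-activated site in capitals. They show the gene with the largest KO difference (Ifit1), 2 strongly lower genes that hold both motifs (Bst2, Oas1a), a pair of related GTPase genes that moved in opposite directions (Igtp, Irgm1), and a gene without either motif (Xaf1).
Ifit1 promoter, chr19:34640639-34640938: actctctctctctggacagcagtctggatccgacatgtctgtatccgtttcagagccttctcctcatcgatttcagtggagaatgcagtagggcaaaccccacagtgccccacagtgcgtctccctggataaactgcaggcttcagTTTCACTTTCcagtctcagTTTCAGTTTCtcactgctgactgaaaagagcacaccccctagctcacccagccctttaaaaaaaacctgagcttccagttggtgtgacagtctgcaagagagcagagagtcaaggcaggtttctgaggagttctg
Bst2 promoter, chr8:71537423-71537722: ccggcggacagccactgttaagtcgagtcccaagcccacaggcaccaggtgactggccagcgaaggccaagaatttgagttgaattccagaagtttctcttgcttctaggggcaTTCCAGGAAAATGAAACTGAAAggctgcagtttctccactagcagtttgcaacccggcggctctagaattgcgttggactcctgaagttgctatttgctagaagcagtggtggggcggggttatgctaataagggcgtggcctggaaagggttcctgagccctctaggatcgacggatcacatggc
Oas1a promoter, chr5:120907476-120907775: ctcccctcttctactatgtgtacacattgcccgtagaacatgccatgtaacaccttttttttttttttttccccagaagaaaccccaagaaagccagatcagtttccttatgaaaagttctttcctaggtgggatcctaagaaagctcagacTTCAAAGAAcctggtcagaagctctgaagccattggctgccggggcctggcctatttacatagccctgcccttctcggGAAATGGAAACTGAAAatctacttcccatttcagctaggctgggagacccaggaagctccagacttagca
Igtp promoter, chr11:58199306-58199605: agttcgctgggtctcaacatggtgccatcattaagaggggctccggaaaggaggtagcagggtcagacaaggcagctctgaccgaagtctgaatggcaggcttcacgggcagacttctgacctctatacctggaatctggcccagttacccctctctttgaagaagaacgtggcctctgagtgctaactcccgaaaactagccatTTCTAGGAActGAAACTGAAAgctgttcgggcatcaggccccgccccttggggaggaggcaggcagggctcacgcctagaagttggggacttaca
Irgm1 promoter, chr11:48871371-48871670: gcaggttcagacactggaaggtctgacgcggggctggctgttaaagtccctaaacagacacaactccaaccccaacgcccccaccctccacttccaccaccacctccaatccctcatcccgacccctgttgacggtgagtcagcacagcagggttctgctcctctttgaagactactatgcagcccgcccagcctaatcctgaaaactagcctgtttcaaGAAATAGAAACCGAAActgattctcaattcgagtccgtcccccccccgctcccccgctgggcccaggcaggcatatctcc
Xaf1 promoter, chr11:72301379-72301678: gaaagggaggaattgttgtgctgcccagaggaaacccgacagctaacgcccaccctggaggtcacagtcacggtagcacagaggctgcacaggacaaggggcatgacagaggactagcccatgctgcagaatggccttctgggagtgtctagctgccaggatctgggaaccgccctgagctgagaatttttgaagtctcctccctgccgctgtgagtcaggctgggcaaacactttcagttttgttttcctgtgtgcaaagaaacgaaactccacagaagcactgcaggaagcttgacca

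Ifit1 holds its 2 copies of the strict core at 104 and 85 bases before the start, both read on the other strand. In Bst2 the copies begin 130 and 124 bases before the start and overlap each other and the gamma-activated site at 136. Oas1a has overlapping copies at 20 and 14, and Igtp has 1 copy at 34 beside a gamma-activated site at 45. Irgm1, which was higher in KO, has overlapping copies at 30 and 24. Among the 13 tested genes with the strict core, Irgm1 alone had a higher mean in KO than in WT (0.92, short of 2-fold), while 8 fell and 0 rose.

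The sensors of viral RNA were also lower in KO than in WT. Rigi and Ifih1 encode the helicases that detect short and long viral RNA in the cytoplasm, and Dhx58 a related helicase without the signalling domain. Dhx58 read 7.01, 7.07 and 7.26 on the WT arrays, 6.73, 6.73 and 6.86 on the Het arrays and 5.92, 6.03 and 6.21 on the KO arrays. It fell by 1.06 ± 0.08 in KO (adjusted p = 8.5e-07), but its KO mean of 6.05 lay under the low-value limit, so the size holds for the deposited values only. The fall was short of 2-fold without WT replicate 3 (-0.98) or KO replicate 1 (-0.99). Its other 2 probe sets, both below the limit, gave -0.72 and 0.21, the latter not passing (adjusted p = 0.0561 among all probe sets). Ifih1 was lower by -0.79 in KO and -0.38 in Het, and Rigi by -0.37 and -0.16.

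Zbp1, a sensor of Z-form nucleic acid that can trigger necroptosis, gave probe sets that differed. The probe set used in the test read 6.18, 6.09 and 6.42 in WT, 6.51, 6.28 and 6.14 in Het and 6.18, 6.26 and 6.33 in KO, with overlapping arrays. The other read 6.37, 6.75 and 6.28 in WT, 6.35, 6.21 and 6.03 in Het and 5.77, 5.91 and 5.85 in KO, a log2 difference of -0.62 (adjusted p = 0.00252 among all probe sets). Both lay near the low-value limit, so Zbp1 was hardly measured.

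**Figure D2:**
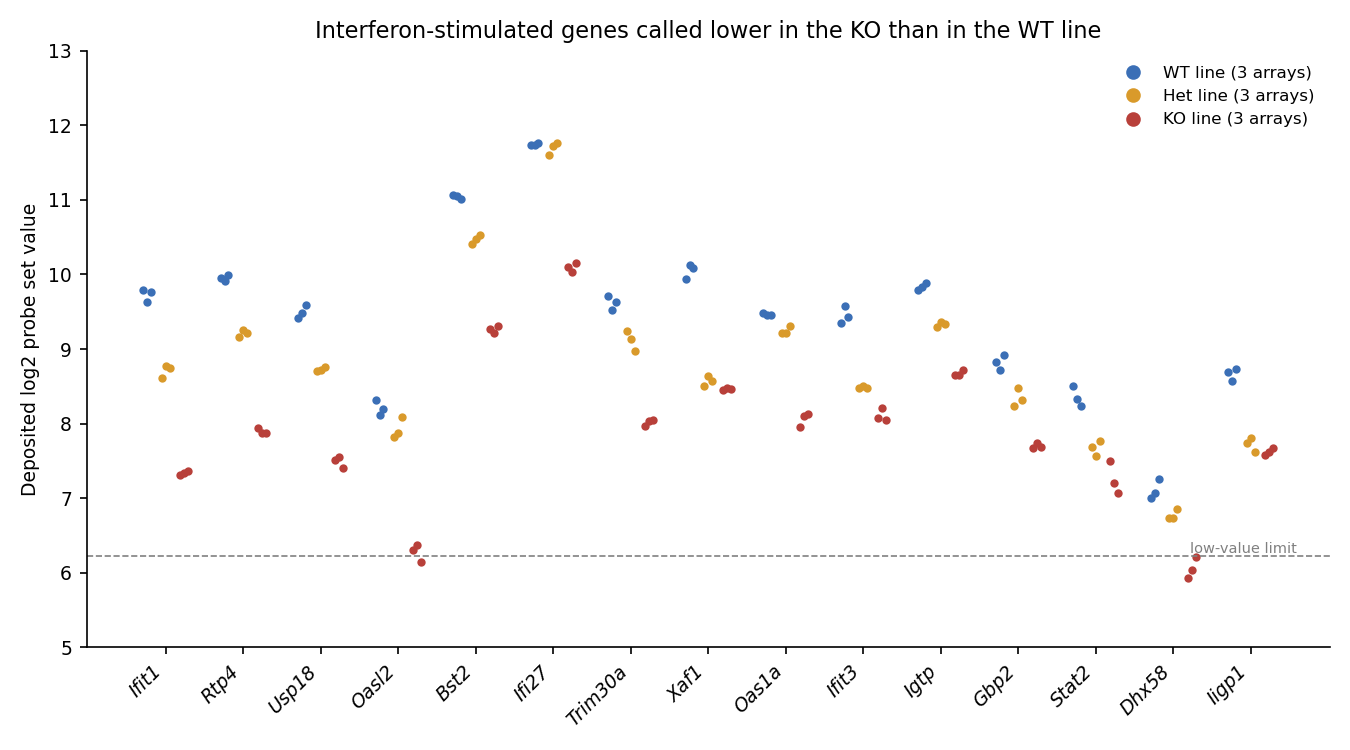
Deposited log2 value (vertical axis) on each of the 9 arrays for the 15 genes that fell in KO against WT, ordered by the size of the fall; blue, orange and red points are WT, Het and KO arrays and the dashed line is the low-value limit of 6.22. In each gene the KO arrays lie below the WT arrays, while the Het arrays of Ifi27 (11.60 to 11.76) lie with WT and those of Iigp1 (7.62 to 7.81) lie with KO.

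Ifit1 had the largest difference of the 32 genes in KO against WT. Usp18 encodes the protease that removes Isg15 from proteins and also restrains the type I receptor. It read 9.42, 9.49 and 9.59 in WT, 8.70, 8.71 and 8.76 in Het and 7.51, 7.55 and 7.41 in KO. The arrays of the 3 lines did not overlap. Usp18 fell 4.01-fold in KO (log2 difference -2.01 ± 0.05, adjusted p = 2.2e-10), and in Het it was lower by -0.77.

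Ifit1, Ifit2 and Ifit3 encode tetratricopeptide proteins that bind viral RNA or each other, and the 3 genes lie near each other on chromosome 19, which also carries Oga. Ifit1 read 9.79, 9.63 and 9.76 on the WT arrays, 8.61, 8.78 and 8.75 on the Het arrays and 7.31, 7.34 and 7.37 on the KO arrays. It fell 5.24-fold in KO (log2 difference -2.39 ± 0.06, adjusted p = 9.9e-11) and 2.02-fold in Het (-1.02 ± 0.06, adjusted p = 5.4e-07). Leaving out 1 array at a time, the Het difference of Ifit1 was short of 2-fold without WT replicate 1 (-0.98), without Het replicate 1 (-0.96) and, by a smaller margin, without WT replicate 3. After quantile normalization it was -0.99.

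Ifit3 read 9.35, 9.58 and 9.43 in WT, 8.47, 8.50 and 8.48 in Het and 8.07, 8.21 and 8.05 in KO. It fell by 1.34 ± 0.06 in KO and was lower in Het by -0.97 ± 0.06, so its Het level lay nearer to KO than to WT. The Het difference reached 2-fold with arrays centred on their medians (-1.01) or without WT replicate 1 (-1.02). Ifit2 departed from this order: it read 8.43, 8.40 and 8.40 in WT, 7.81, 7.85 and 7.84 in Het and 8.19, 8.13 and 8.12 in KO, and it was described here array by array after its values were seen. Its lowest line was Het, which lay below WT by -0.57 ± 0.04 (adjusted p = 1.9e-06) and below KO, where KO minus Het was 0.31 ± 0.04 (adjusted p = 4.2e-05). The neighbours Ifit2 and Ifit3, with no protein-coding gene between them in RefSeq, thus differed in which line was lowest.

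The oligoadenylate synthetase family divided. Oas1a makes the messenger that activates the antiviral nuclease RNase L, and Oasl1 and Oasl2 are related proteins. Oas1a read 9.49, 9.46 and 9.46 in WT, 9.21, 9.21 and 9.31 in Het and 7.95, 8.10 and 8.13 in KO. Oasl2 read 8.31, 8.11 and 8.20 in WT, 7.81, 7.87 and 8.08 in Het and 6.30, 6.38 and 6.15 in KO. In both genes the Het arrays lay just under the WT arrays and far above the KO arrays. Oasl2 fell by 1.93 ± 0.08 and Oas1a fell by 1.41 ± 0.05 in KO against WT. The KO mean of Oasl2, 6.27, lay next to the low-value limit of 6.22, so the sizes of its falls hold for the deposited values only. In KO against Het, Oasl2 fell by 1.65 ± 0.08 and Oas1a fell by 1.18 ± 0.05, while the Het minus WT differences were -0.29 (adjusted p = 0.0193) and -0.22 (adjusted p = 0.00641). Oasl1, which adjoins Oasl2 in the genome, stayed between 6.88 and 7.16 on all 9 arrays.

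The interferon-inducible GTPases held the 1 gene of the 32 that was higher in KO than in WT by the adjusted p. Igtp, Iigp1, Gbp2 and Gbp3 encode GTPases that gather on the vacuoles of intracellular parasites, and Irgm1 encodes a regulator that keeps such GTPases inactive on the membranes of the cell. Igtp read 9.80, 9.83 and 9.89 in WT, 9.29, 9.36 and 9.33 in Het and 8.65, 8.66 and 8.72 in KO. Irgm1 read 9.83, 9.85 and 9.89 in WT, 9.9999, 9.9999 and 9.9636 in Het and 10.79, 10.80 and 10.72 in KO. The order of the lines in Irgm1 was the reverse of that in Igtp, and in neither gene did the arrays of any lines overlap. Irgm1 was higher in KO by 0.92 ± 0.04 (adjusted p = 6.7e-09) and in Het by 0.13 ± 0.04 (adjusted p = 0.0218), both short of 2-fold, while Igtp fell by 1.16 ± 0.04 in KO.

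Iigp1 read 8.69, 8.57 and 8.74 in WT, 7.74, 7.81 and 7.62 in Het and 7.57, 7.62 and 7.67 in KO. It fell by 1.05 ± 0.06 in KO, just short of 2-fold after quantile normalization (-0.999), and was lower in Het by -0.94 ± 0.06. The Het and KO arrays overlapped, with a KO minus Het difference of -0.10 ± 0.06 (adjusted p = 0.158). Gbp2 read 8.83, 8.72 and 8.92 in WT, 8.23, 8.48 and 8.32 in Het and 7.67, 7.74 and 7.69 in KO, and it fell by 1.12 ± 0.07 in KO. The Gbp2 probe set carries a mark for possible cross-hybridization; the unmarked one gave -0.96, short of 2-fold. Gbp3 was lower by -0.95 in KO and -0.36 in Het. Mx2, a dynamin-like antiviral GTPase, differed by -0.32 in KO and by -0.16 in Het (adjusted p = 0.0909), and Mx1 lay between 5.13 and 5.67 on all 9 arrays, under the low-value limit.

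Among the other effectors 5 of 9 tested genes fell in KO, where 2.58% of all genes fell. Rtp4, which encodes an interferon-induced transmembrane protein, read 9.95, 9.91 and 9.99 in WT, 9.15, 9.26 and 9.21 in Het and 7.95, 7.87 and 7.88 in KO. Bst2, or tetherin, which holds budding virus at the cell surface, read 11.06, 11.05 and 11.02 in WT, 10.40, 10.48 and 10.53 in Het and 9.27, 9.22 and 9.31 in KO. Both genes showed 3 separate levels in the order WT, Het, KO. Rtp4 fell by 2.05 ± 0.04 in KO and was lower in Het by -0.74 ± 0.04, and Bst2 fell by 1.77 ± 0.04 and was lower in Het by -0.57 ± 0.04.

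Ifi27, a small mitochondrial protein gene, was near its WT level in the Het line. It read 11.74, 11.74 and 11.76 in WT, 11.60, 11.72 and 11.76 in Het and 10.10, 10.03 and 10.15 in KO. The Het and WT arrays overlapped (Het minus WT -0.05 ± 0.05, adjusted p = 0.444), and in KO Ifi27 fell by 1.65 ± 0.05 against WT and fell by 1.60 ± 0.05 against Het. At the other Ifi27 probe set the Het arrays (11.37, 11.43 and 11.48) lay below the WT arrays (11.55, 11.65 and 11.62), by -0.17 (adjusted p = 0.068 among all probe sets), and KO minus WT was -1.75. Trim30a, a ubiquitin ligase of the TRIM family, read 9.71, 9.52 and 9.63 in WT, 9.24, 9.14 and 8.97 in Het and 7.97, 8.03 and 8.05 in KO, with no overlap between lines. It fell by 1.60 ± 0.07 in KO at this probe set, and its other probe set gave -1.97.

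Rsad2 encodes viperin, which makes a chain-terminating nucleotide, and Cmpk2, its neighbour, a mitochondrial nucleotide kinase. Rsad2 was lower in KO by -0.87 ± 0.06 and in Het by -0.52 ± 0.06. Its other probe sets gave -0.53 and -1.06 in KO, and the latter, whose mean lay under the low-value limit, passed 2-fold. Both Cmpk2 probe sets lay under that limit, from 5.68 to 6.05 and from 4.63 to 5.17. The galectin-3 binding protein gene Lgals3bp (-0.91 in KO, -0.40 in Het) and Samd9l, a restrictor of viral translation (-0.77 and -0.17), were lower without reaching 2-fold, as were the ADP-ribosyltransferase genes Parp9 (-0.95 and -0.34) and Parp14 (-0.77 in KO; -0.11 in Het, adjusted p = 0.142). Ifi35 read 11.03, 11.07 and 11.04 in WT, 11.03, 11.14 and 11.13 in Het and 10.72, 10.74 and 10.80 in KO, which made it lower in KO by -0.29 ± 0.04. Its Het and WT arrays overlapped (0.06 ± 0.04, adjusted p = 0.355), and its 2 other probe sets gave -0.03 and 0.03 in Het.

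Xaf1, which encodes an antagonist of the apoptosis inhibitor XIAP, gave opposite results at its 2 probe sets in the Het line. At its brighter probe set, which represents the gene in the test, it read 9.94, 10.13 and 10.09 in WT, 8.51, 8.64 and 8.57 in Het and 8.45, 8.47 and 8.46 in KO. Here the Het arrays lay just above the KO arrays and far below the WT arrays. Xaf1 fell by 1.48 ± 0.05 in Het (adjusted p = 4.0e-08), and it fell by 1.59 ± 0.05 in KO, with a KO minus Het difference of -0.11 ± 0.05 (adjusted p = 0.113). At its dimmer probe set it read 4.87, 4.71 and 4.82 in WT, 7.92, 8.0 and 8.02 in Het and 4.71, 4.63 and 4.86 in KO. The Het line alone stood above the low-value limit, with a Het minus WT difference of 3.18 ± 0.07 (adjusted p = 3.5e-09 among all probe sets), while KO and WT differed by -0.07 (adjusted p = 0.526). Since the WT and KO values lay under the limit, the size holds for the deposited values only. The mean of the dimmer probe set over all arrays lay under the limit, so it did not enter the test by gene. The sources used here do not say which part of the transcript each probe set reads, and the direction of Xaf1 in the Het line holds for each probe set separately.

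**Figure D3:**
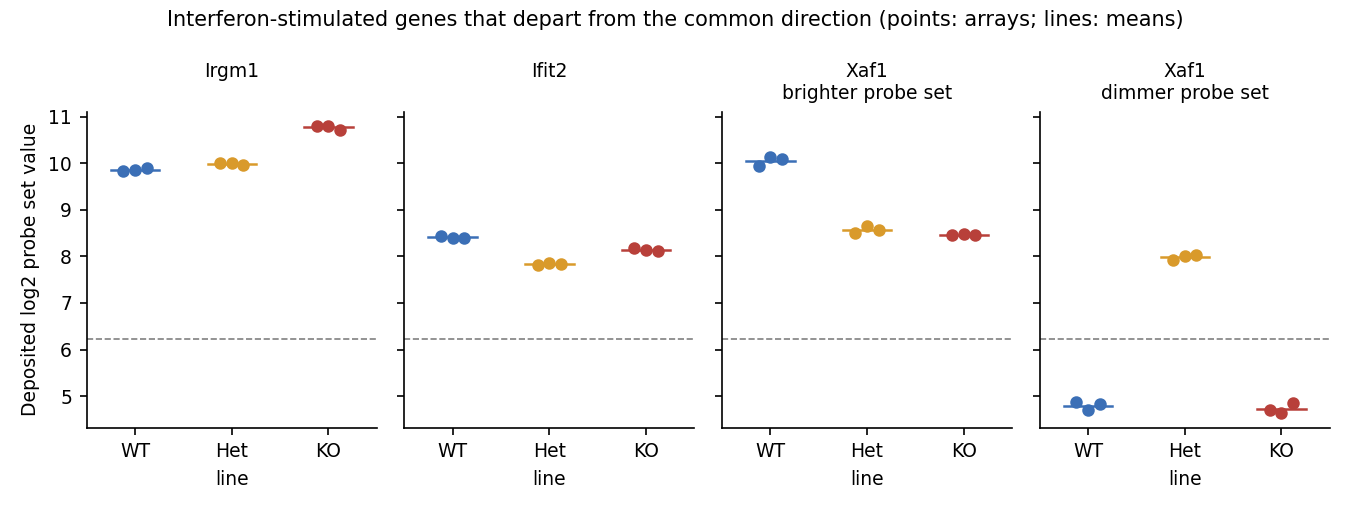
Deposited log2 values (vertical axis) on each array (points) with line means (bars) for Irgm1, Ifit2 and both probe sets of Xaf1, by line; the dashed line is the low-value limit of 6.22. Irgm1 is highest in KO (10.72 to 10.80), Ifit2 is lowest in Het (7.81 to 7.85), and the dimmer Xaf1 probe set is above the limit in Het only (7.92 to 8.02).

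Over all 52 probe sets of the 34 genes, 19 were called lower and 0 higher in KO against WT (limma), where 1.21% of all 45037 probe sets were called lower and 0.646% higher. By the adjusted p alone 44 were lower and 1 higher, against 14.8% and 14.2%. In Het against WT, 2 were called lower and 1, that of Xaf1, higher, against 0.151% and 0.0955%. In KO against Het 11 were called lower, with the dimmer one of Xaf1 among them (-3.25), and 0 higher (limma, 2 by the adjusted p), against 0.637% and 0.415%.

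Of 9 tested genes for receptor chains and kinases, 5 were lower and 1 higher in KO by the adjusted p, beside 31.5% and 21.6% of all genes, all short of 2-fold, with a median of -0.13. The lower genes were Ifnar2 (-0.13, adjusted p = 0.0303), the kinase genes Jak1 (-0.24), Tyk2 (-0.26) and Jak2 (-0.31), and Stat3 (-0.28). The other type I receptor gene, Ifnar1, did not pass (-0.12, adjusted p = 0.0813). Ifngr2, the signalling chain of the type II receptor, differed by -0.50 in Het and by 0.26 in KO. The interferon ligands were hardly measured: 3 of 19 listed genes passed the filter, and of these Ifna1 was at -0.29 (adjusted p = 0.0109), Ifna9 at 0.01 and Ifnz at -0.07 in KO.

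Among 6 other interferon regulatory factor genes 1 fell in KO, where 2.58% of all genes fell: Irf8 (-1.08), a factor of macrophage development. By the adjusted p 4 of the 6 were lower and 0 higher, beside 31.5% and 21.6% of all genes. Among 15 sensor adaptors and kinases 1 fell, beside the same 2.58%: the endosomal RNA receptor gene Tlr7 (-1.63), whose KO mean of 6.24 lay next to the low-value limit. By the adjusted p 10 of the 15 were lower and 0 higher, beside the same shares of all genes. Zc3hav1 (-0.84) and Myd88 (-0.53) were among the lower ones. The median of the 15 was -0.40. Of 14 negative regulators 4 were lower and 3 higher in KO by the adjusted p, shares near the 31.5% and 21.6% of all genes, all short of 2-fold, with a median of -0.06. The feedback inhibitors Socs1 (-0.65) and Socs3 (-0.84) were lower, and Tnfaip3, which restrains NF-kappa-B signalling, was higher (0.92).

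A further list of 39 tested interferon-stimulated genes had a smaller median than the 32, at -0.31 in KO and -0.10 in Het. In KO 5 of them fell and 1 rose, beside 2.58% and 0.988% of all genes. By the adjusted p 29 were lower and 2 higher, beside 31.5% and 21.6% of all genes. Those that fell were Ifi27l2a (-2.04), a relative of Ifi27, the GTPase genes Gbp6 (-1.64) and Irgm2 (-1.33), Epsti1 (-1.36) and the ubiquitin ligase gene Rnf213 (-1.03). The KO mean of Gbp6, 6.19, lay under the low-value limit, so its size holds for the deposited values only. Gbp2b rose in both lines, by 1.94 in Het and 1.49 in KO; it read 5.19 in WT, under the low-value limit, so the sizes hold for the deposited values only. Ifitm1, which blocks viral entry, was higher in Het (0.61) and lower in KO (-0.70) than in WT.

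Markers of macrophages were also lower in KO than in WT. All 22 listed macrophage and blood markers had a mean above the low-value limit in every line. Of these 21 fell in KO, beside 2.58% of all genes. The median was -1.75, against -0.95 for the interferon-stimulated genes. In Het the median of these markers was -0.35, against -0.39, and 18 were lower by the adjusted p, beside 21% of all genes. In KO against Het the interferon-stimulated genes had a median of -0.46, and 8 of 32 fell. The macrophage and blood markers had a median of -1.35, and 20 of 22 fell, beside 1.37% of all genes. Their summed level, added as unlogged values, was 68593 to 70384 on the WT arrays, 54504 to 57297 on the Het arrays and 20018 to 20954 on the KO arrays, while that of the interferon-stimulated genes was 26432 to 26715, then 20234 to 21295, and 13998 to 14112 in the same order. The defining markers Cd68 (-2.63 in KO), Csf1r (-1.49) and Adgre1 (-1.77) all fell in KO. In Het they differed from WT by -0.78, -0.04 (limma adjusted p = 0.442) and -0.35, in the same order. In bulk RNA, fewer cells of a type and less RNA per cell cannot be told apart, and the part of the macrophage markers in the interferon result was not tested. Fibroblast markers had a median of -0.06 in KO, and 1 of 14 fell, beside 2.58% of all genes. This was the growth factor receptor gene Pdgfra (-2.55), while the collagen genes Col1a1 (-0.08) and Col1a2 (-0.05) kept within 2-fold. By the adjusted p 6 of the 14 were lower and 3 higher, beside 31.5% and 21.6% of all genes. Dcn (-0.93) and Prrx1 (-0.40) were among the lower ones, and the highest difference was that of Fbln2 (0.26). Of 5 tested epithelial markers 4 were higher in KO by the adjusted p and 2 rose, beside 21.6% and 0.988% of all genes. Those that rose were the keratin genes Krt18 (1.68) and Krt19 (1.26). The 7 listed epithelial markers summed to 974 to 1006 in WT, 1058 to 1076 in Het and 1568 to 1687 in KO. The 9 endothelial markers summed to 1215 to 1232 in WT, 1090 to 1158 in Het and 922 to 975 in KO. Of these 3 were tested and 1 fell in KO, the transcription factor gene Erg (-1.15), beside 2.58% of all genes. The median of the 3 was 0.02, and Kdr (0.02, limma adjusted p = 0.829) and Esam (0.04, adjusted p = 0.718) did not pass. By line means, 6 of the 9 endothelial markers lay under the low-value limit for both WT and Het, and 4 for KO. A sum of unlogged values follows its brighter genes, here Erg, so its decline was not shown for the endothelial markers as a set. The 8 lymphocyte markers with a probe set summed to 558 to 618, 601 to 641 and 599 to 640. The part of the epithelial and endothelial markers in the interferon result was not tested.

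**Figure D4:**
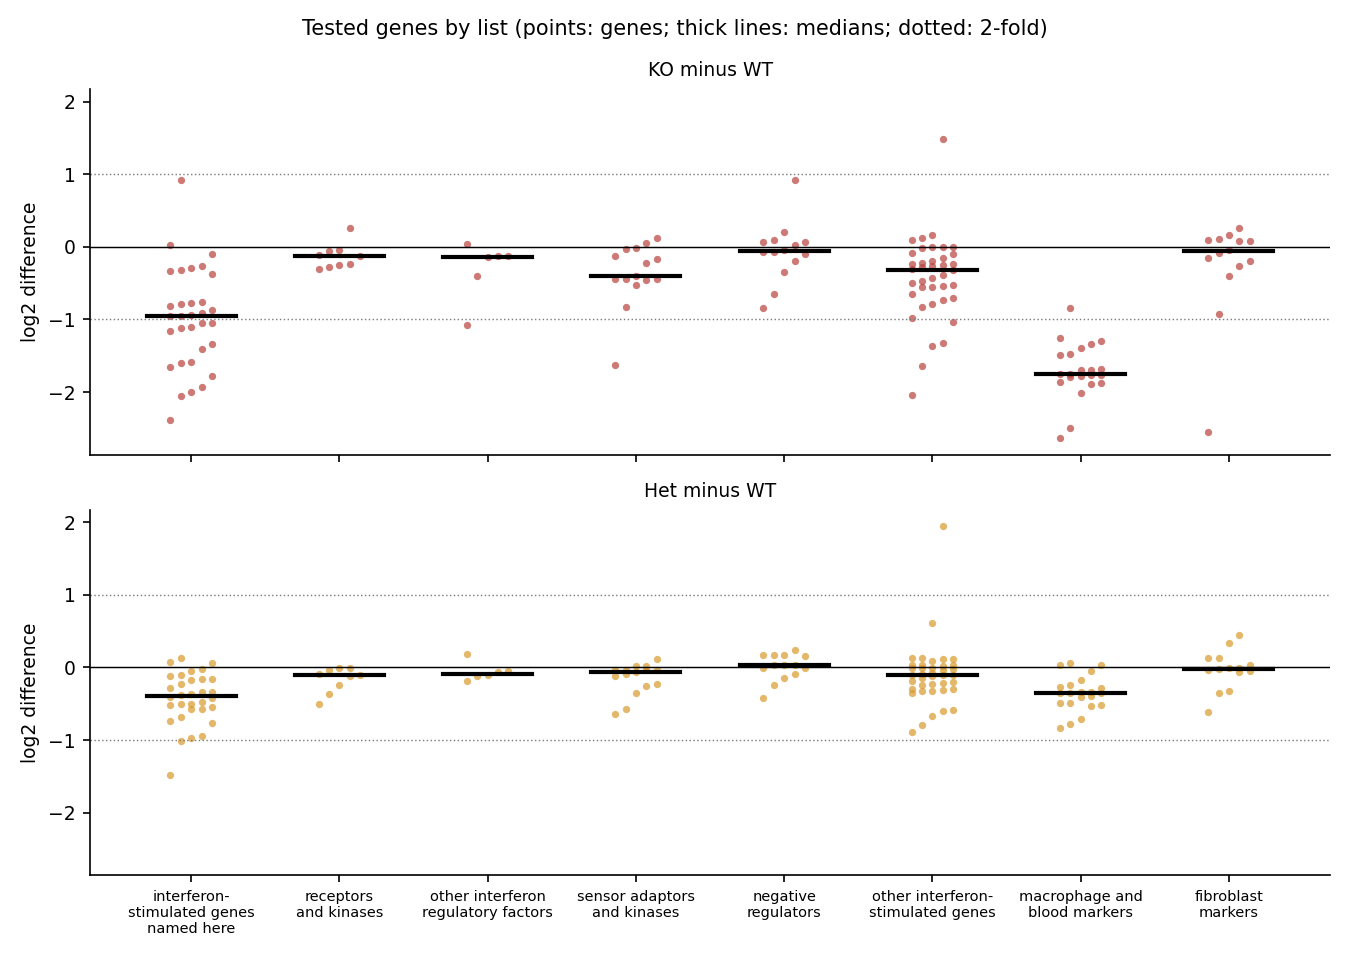
Log2 difference from WT (vertical axis) of each tested gene (points) by list, for KO (upper panel) and Het (lower panel), with list medians as thick lines and 2-fold as dotted lines. In KO the medians are -0.95 for the interferon-stimulated genes named here, -0.13 for receptors and kinases and -1.75 for macrophage and blood markers; in Het they are -0.39, -0.11 and -0.35.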

How the data were processed

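The authors deposited log2 values of 45101 probe sets on 9 arrays, 3 for each line; their range, 3.25 to 15.1, was the basis for the base of the logarithm. Per the labels' protocols, RNA was prepared with Trizol and a DNase step and hybridized as biotinylated cRNA. GCOS and Partek are named in the submitters' processing notes without versions; the methods of background correction and normalization were not given in the sources used here. The medians of the arrays ran from 6.87 to 6.95, and the values were used as deposited. Detection calls were not used here, and the number of arrays limits the precision. The 64 control probe sets were left out, and probe sets were named only where the platform annotation gave 1 symbol (34945 of 45037).

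The 40% of probe sets with the lowest overall mean were left out, and each gene was represented by its probe set with the highest mean. Lines were compared by lmFit and eBayes of limma 3.58.1 (R 4.3.3) over all 9 arrays, with Benjamini-Hochberg adjustment over 12962 genes; a second fit covered all 45037 probe sets. Errors are limma standard errors. On simulated data for KO against WT with 12962 genes, 58% of 50 genes changed by a log2 difference of 1 were called. Of those changed by 1.5 or 2, 100% were called, while 0 of the unchanged genes were called and 11 passed the adjusted p. A difference of 1 lies at the fold minimum itself, so such a gene is called only if its value lands past it. The simulation changed 200 genes and used the spread between arrays of a line. Far more genes passed the adjusted p in the data, so these rates cannot be carried over to them. Lists are described by counts and medians. The genes and lists were chosen with earlier results of these data known. Array values are given for the genes with the largest differences in each comparison, those higher than WT by the adjusted p, and those whose probe sets differ in direction. Figures were drawn with matplotlib 3.10.9.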

Additional observations from a re-analysis of the deposited data

How the results depend on the processing

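Counts of genes called are set by the fold minimum. In KO against WT 24 genes were lower and 1 higher at 1.5-fold, and 29 and 1 with no fold minimum, in place of 15 and 0. In Het against WT 7 were lower at 1.5-fold, and 25 lower and 1 higher with no minimum, in place of 2 and 0. In KO against Het 15 were lower and 1 higher at 1.5-fold, and 25 and 2 with no minimum, in place of 8 and 0. With no minimum, 31.5% of all genes were lower and 21.6% higher in KO against WT. The shares were 21% and 13.4% in Het against WT, and 28.6% and 23.7% in KO against Het. Shares of all genes at 1.5-fold were not computed. Quantile normalization left 1 gene called lower in Het. Testing all probe sets separately added 1 called higher in Het, Xaf1, whose other probe set turned the direction to 3.18. Probe sets without a mark for several transcripts gave 10 lower in KO against WT and 5 in KO against Het, over 24 genes. The count in KO against WT was 13 with a stricter filter on low values, over 24 genes, and 14 with quantile normalization. With each array left out in turn the counts of lower genes were 14 to 16 in KO against WT, 1 to 2 in Het against WT and 8 in KO against Het, and those of higher genes stayed at 0. The core without its last A was held by 14 of 23 tested genes in place of 13.

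The replicate numbers did not pair the arrays: deviations of same-numbered arrays of different lines correlated at r = -0.18 to 0.21, and those of other arrays at -0.25 to 0.21. With a replicate block the counts of lower genes were 15, 2 and 8. Of 1680 values of single genes under the alternatives, 8 lost a call, 86 gained one, mostly through the lower fold minimums, and 1, that of Xaf1, reversed. A change of sign was counted as reversed only where either value was called. Where a gene had several probe sets tested, the one with the largest difference was taken. Zbp1 in KO against WT thus went from 0.03 to -0.62 with all probe sets tested separately, and was not counted as reversed. With 1 line per genotype, none of these alternatives bears on how lines of the same genotype would vary.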
